A study of Mus musculus with 8 samples.

Results

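The genes of the oligodendrocyte lineage and of myelin form a set of 41 genes, listed by symbol, among the 53379 genes of the count table. Each symbol matched a single identifier, and all 41 were tested. They fall into 6 groups by role: 13 genes of the myelin membrane, 9 of lipid and other metabolism, 8 of signalling and the cytoskeleton, 6 transcription factors, 3 genes of committed precursors and 2 of precursors. The first 3 groups, 30 genes, are called the myelinating members. The question put to them was whether genes of precursors and genes of myelinating cells behave alike across the samples and between the genotypes.

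The tissue was the cingulate gyrus, named cingulate cortex in the labels, of untreated male mice. WT samples came from *Mvp*+/+ mice and Mvp KO samples from *Mvp*-/- mice, with 4 samples of each genotype, which the study describes as biological replicates. The *Mvp*-/- line derives from a gene trap, in which a β-Geo cassette sits in the first intron of *Mvp*, the gene of the major vault protein, in all cells of the animal, on a C57BL/6N background. The age of these mice was not given in the sources used here.

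Oligodendrocytes wrap axons of the central nervous system in myelin, a stack of membrane rich in galactolipid and in a few abundant proteins. They arise from precursor cells that keep dividing in the adult cortex and that respond to platelet-derived growth factor through the receptor encoded by *Pdgfra*. A precursor that commits to differentiate passes through a short stage marked by *Gpr17*, *Bcas1* and *Enpp6*, then switches on the transcription factor *Myrf*, which together with *Sox10* drives the genes of the myelin sheath.

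Several members are direct targets of MYRF and *Sox10* in textbook accounts, so the sequence before their start sites was read from RefSeq's table for GRCm38.p6, which held 35 windows for 27 of the 41 members. The 250 bases before each start were searched on both strands for CTGGCAC and CTGGTAC, which are forms of the MYRF site, and for ACAAAG and ACAATG, which are forms of the core bound by SOX proteins. No 2 matches in the windows printed here overlapped. CTGGCAC occurred in 4 of 27 members (*Mag*, *Cnp*, *Hapln2* and *Lpar1*), against 4.83% of all 27025 genes with a window, and CTGGTAC occurred in 1 (*Mog*), against 2.11%. ACAAAG occurred in 8 of 27 members against 18.6% of genes, and ACAATG in 6 of 27 against 12.2%. Among 32851 windows of the same length over all genes, the shares were 4.19%, 1.83%, 16.5% and 10.7% in the same order. Of 3 further motifs searched, TATAAA occurred in 3 of 27 members against 14.3% of genes, the E-box form CATATG in 2 against 3.98%, and the E-box form CAGCTG in 2 against 14.7%. The motifs were chosen with the expression values known, and a match is a description of the letters, not of binding. The 4 myelin membrane genes with a form of the MYRF site are printed here beside the precursor gene *Cspg4*, in whose window none of the first 4 motifs was found. Each is written 5′ to 3′ on the strand of the gene, stops where the GENCODE vM21 span of the gene begins, and has the matches to the first 4 motifs in capitals. The CAGCTG of *Hapln2* also lies in the printed stretch and is left in lower case.
Mag, chr7:30914874-30915113, minus strand: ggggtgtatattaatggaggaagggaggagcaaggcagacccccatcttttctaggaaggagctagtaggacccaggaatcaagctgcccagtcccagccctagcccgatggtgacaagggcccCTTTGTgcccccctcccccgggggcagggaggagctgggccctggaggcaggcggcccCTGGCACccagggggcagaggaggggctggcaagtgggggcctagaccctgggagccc
Cnp, chr11:100574689-100574903, plus strand: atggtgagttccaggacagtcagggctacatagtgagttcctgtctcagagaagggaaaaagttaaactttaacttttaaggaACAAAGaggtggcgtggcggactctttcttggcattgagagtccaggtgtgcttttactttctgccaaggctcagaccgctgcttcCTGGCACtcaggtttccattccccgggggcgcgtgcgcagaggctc
Hapln2, chr3:88027584-88027761, minus strand: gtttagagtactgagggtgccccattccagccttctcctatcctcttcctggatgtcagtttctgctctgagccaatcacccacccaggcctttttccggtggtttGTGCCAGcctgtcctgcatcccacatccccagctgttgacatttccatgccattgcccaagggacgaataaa
Mog, chr17:37023399-37023648, minus strand: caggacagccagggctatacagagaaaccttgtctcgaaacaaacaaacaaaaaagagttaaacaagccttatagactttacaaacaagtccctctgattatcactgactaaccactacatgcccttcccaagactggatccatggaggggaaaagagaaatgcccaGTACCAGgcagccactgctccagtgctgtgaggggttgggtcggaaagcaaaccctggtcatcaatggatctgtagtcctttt
Cspg4, chr9:56864854-56865032, plus strand: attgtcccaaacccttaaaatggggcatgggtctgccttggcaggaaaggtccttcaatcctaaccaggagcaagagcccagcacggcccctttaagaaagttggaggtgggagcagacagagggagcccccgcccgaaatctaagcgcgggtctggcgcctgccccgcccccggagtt
In the *Mag* window the MYRF form began 68 bases and an ACAAAG on the other strand 126 bases before the RefSeq start, so that it reads CTTTGT here. In the *Cnp* window the matches began 81 bases (CTGGCAC) and 167 bases (ACAAAG) before the start. The *Hapln2* and *Mog* matches lie on the opposite strand, 144 and 83 bases before the start, and so read GTGCCAG and GTACCAG. The ACAATG of *Hapln2*, 35 bases before the start, lies outside the printed stretch.

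The table holds raw counts, of which each sample had between 28456504 and 42854368 in total, and the totals did not separate WT from Mvp KO (p = 0.686 in a two-sided exact permutation test, 4 samples per genotype). Members had between 41 and 88942 counts in a sample. Levels are given as CPM, for which TMM factors brought all libraries to the same size, and as CPM per kilobase of exon (RPKM) where genes are compared with each other. The targeted gene *Mvp* matched the labels, at 6.83 ± 1.0 CPM in WT and 1.63 ± 0.334 CPM in Mvp KO (SD, n = 4 each), and its log2 fold change was -2.06 (SE 0.186, adjusted p = 0.0162, quasi-likelihood test in edgeR, adjusted over all genes). That call was lost without WT replicate 1, 2 or 3 or Mvp KO replicate 1, 2 or 4, each left out alone, with the log2 fold change between -2.22 and -1.99. A pair of samples stood apart in marker genes of other cells. WT replicate 4 had a summed level of 10 neuronal activity genes of 3856 CPM where the other 7 samples ranged from 679 to 1537 CPM, and the lowest sum of 6 leptomeningeal fibroblast genes (19.3 CPM). Mvp KO replicate 1 had the highest sum of the fibroblast genes (98.5 CPM, with the rest between 19.3 and 58.0 CPM) and was highest in 6 of 6 of them. Of 4 genes listed as markers of Schwann cells, which myelinate outside the brain, 2 (*Prx* among them) were below 1 CPM in every sample, *Ncmap* reached 1.05 CPM in WT replicate 4, and *Egr2*, which neurons also make on activity, was at 11.7 to 57.2 CPM.

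The lineage was detected at every stage in all 8 samples, as the defining genes of each stage show. Per length, *Mbp*, which encodes the myelin basic protein that compacts the membrane, had the highest level of the 41 in WT, at 96.6 ± 30.4 RPKM (SD, n = 4). The next 3 were *Qdpr* (60.7 ± 5.51 RPKM), *Car2* (48.2 ± 7.74 RPKM) and *Mal* (45.6 ± 16.6 RPKM), and their means lay within 1 SD of *Mal* from each other. The precursor genes were far lower, with *Pdgfra* at 5.71 ± 0.735 RPKM and *Cspg4* at 1.37 ± 0.144 RPKM, and the lowest member was *Nkx2-2* at 0.650 ± 0.121 RPKM. Among the committed-stage genes, *Bcas1* stood at 15.2 ± 3.98 RPKM and *Gpr17* at 9.79 ± 1.77 RPKM, while *Enpp6*, a choline phosphodiesterase of newly forming oligodendrocytes, stood at 0.688 ± 0.206 RPKM. Several of these genes are also transcribed by other cells: *Qdpr*, *Car2*, *Cryab*, *Apod*, *Enpp2*, *Lpar1* and *Pdgfra* are known from neurons, astrocytes, choroid plexus or meningeal cells as well. In bulk tissue, fewer cells of a type and less RNA per cell cannot be told apart.

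No member passed the test between the genotypes. At an adjusted p under 0.05 the count was 0 of 41, where 0.00591% of all 16914 genes tested were called, a single gene, *Mvp*. At an unadjusted p under 0.05 there was 1 of 41, the transcription factor *Olig2*, against 1.56% of all genes, or 0.698% counting those higher in Mvp KO. That count was 24 without Mvp KO replicate 4, where 1.74% of all genes passed, and 6 without Mvp KO replicate 3, where 1.53% passed. It was 0 without WT replicate 1, Mvp KO replicate 1 or Mvp KO replicate 2, where 2.75%, 1.5% and 1.13% of all genes passed. The adjusted p was 0.969 for each member but *Cspg4*, at 0.982. In all 8 samples DESeq2's Wald test gave 0 called and 3 at an unadjusted p under 0.05 (*Hapln2*, *Olig2* and *Bcas1*), against 1.17% of the 30700 genes it tested. The genotypes did not overlap in 0 of 41, against 1.52% of all genes. The fitted log2 fold change (Mvp KO minus WT) was above 0 for 40 of 41 members, the exception being *Gpr17*, where 50% of all genes lay above 0. The members moved together between samples, so these 41 directions are not independent of each other. The median was 0.58 over the members and -2.1e-06 over all genes tested, and the median SE was 0.370 against 0.140.

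**Figure D1:**
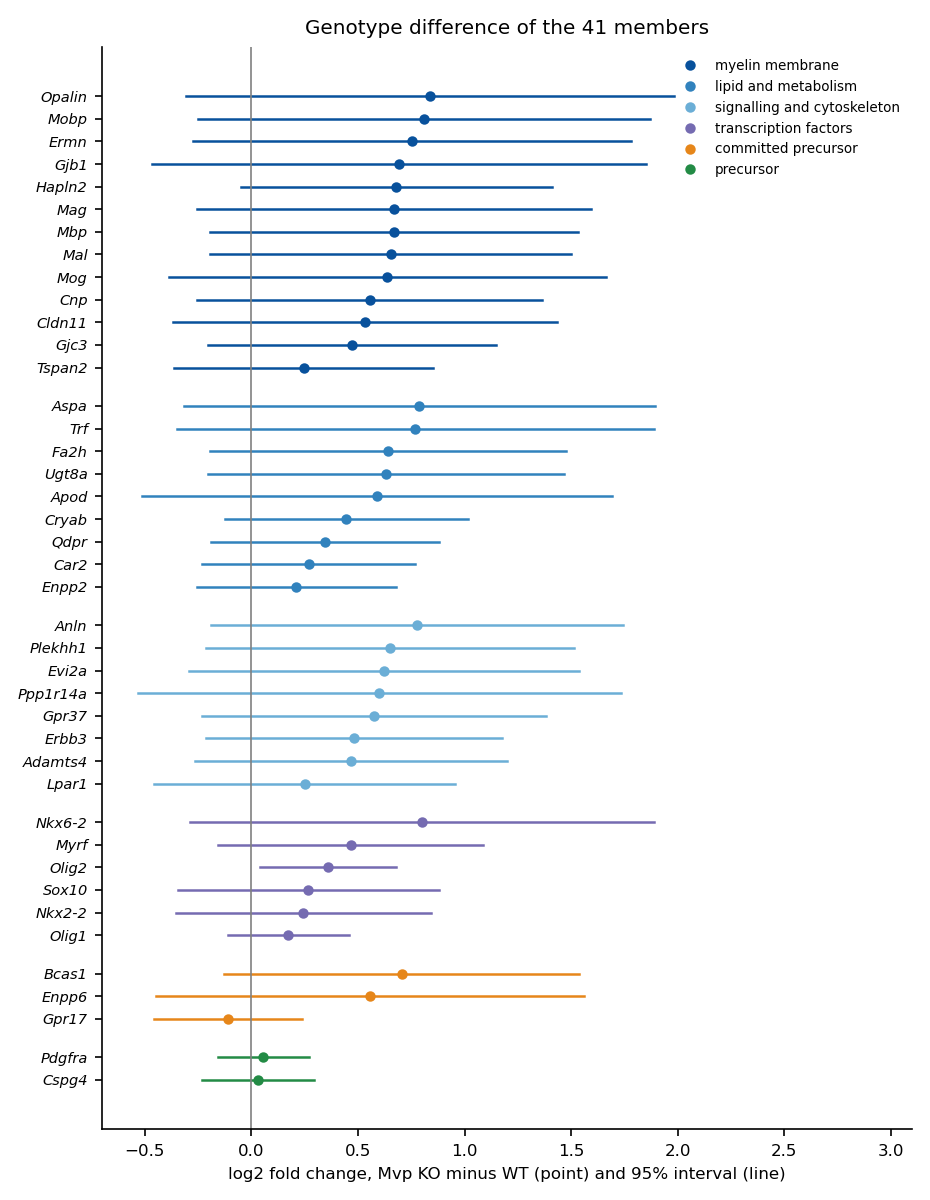
Log2 fold change of each of the 41 members (x axis, Mvp KO minus WT) as a point with its 95% interval as a line, from edgeR's fit of 4 samples per genotype, coloured by group. Points of the myelinating members lie between 0.21 and 0.84 with wide intervals that include 0, while the intervals of *Pdgfra* and *Cspg4* are narrow and close to 0.

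The 13 myelin membrane genes were each higher on average in Mvp KO, with a median log2 fold change of 0.67 and a range from 0.24 (*Tspan2*) to 0.84 (*Opalin*), and each 95% interval included 0. *Mbp* was at 711, 879, 1143 and 540 CPM in WT replicates 1 to 4 and at 2219, 1532, 811 and 642 CPM in Mvp KO replicates 1 to 4. Mvp KO replicates 1 and 2 were thus above every WT sample, and Mvp KO replicates 3 and 4 fell inside the WT range. Its mean was 818 ± 257 CPM in WT and 1301 ± 723 CPM in Mvp KO (SD, n = 4 each), a 1.59-fold difference with a 95% interval of 0.873-fold to 2.89-fold. *Mog*, a glycoprotein on the outermost myelin lamella, was at 16.1, 25.2, 27.9 and 13.7 CPM in WT and at 58.7, 40.2, 18 and 12.3 CPM in Mvp KO. Its log2 fold change was 0.64 (SE 0.456), and Mvp KO replicate 4 was the lowest of the 8 samples. *Mag*, the adhesion molecule on the membrane that faces the axon, was at 48.1, 75.4, 81.6 and 43 CPM in WT and at 164, 130, 56.6 and 43.7 CPM in Mvp KO, with a log2 fold change of 0.67 (SE 0.411). *Cnp*, the cyclic nucleotide phosphodiesterase of non-compact myelin, was at 114, 151, 172 and 88.9 CPM in WT and at 310, 242, 121 and 99.8 CPM in Mvp KO, with a log2 fold change of 0.55 (SE 0.360). *Mbp*, *Mag* and *Cnp* placed the 8 samples in the same order, and *Mog* differed from them only in which of WT replicate 4 and Mvp KO replicate 4 was lowest. The windows of *Mag*, *Cnp* and *Mog* were printed because they hold a form of the MYRF site. Those of *Mal* and *Cldn11*, of the same group, held neither form. Whether the site bears on the order of samples was not tested.

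*Opalin*, a membrane glycoprotein of mature oligodendrocytes, had the highest log2 fold change of the group, 0.84 (SE 0.509, 95% interval -0.31 to 1.98). It was at 7.37, 11.7, 10.5 and 5.27 CPM in WT and at 27.7, 21.8, 7.92 and 4.81 CPM in Mvp KO. *Tspan2*, a tetraspanin, had the lowest, 0.24 (SE 0.270), with 74.8, 79.7, 103 and 115 CPM in WT and 157, 137, 82.2 and 65.8 CPM in Mvp KO. It differed from the rest of the group in WT replicate 4, where it was the highest of the WT samples while 11 of the 13 genes had their lowest WT value there. *Gjb1* was the other gene that did not, at 3.02 CPM against 2.27 CPM in WT replicate 1. The other members of the group were *Mobp*, *Cldn11*, *Ermn*, *Mal*, the connexins *Gjc3* and *Gjb1*, and *Hapln2*, a link protein of nodes of Ranvier, and their log2 fold changes lay between 0.47 and 0.81.

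The 9 genes of lipid and other metabolism had a median log2 fold change of 0.59, all above 0, with a range from 0.21 to 0.79. *Ugt8a*, which makes the galactosylceramide of myelin, was at 26.5, 33.5, 34.9 and 22.5 CPM in WT and at 78.4, 55.1, 25.0 and 23.3 CPM in Mvp KO, with a log2 fold change of 0.63 (SE 0.370). *Aspa*, the enzyme that splits N-acetylaspartate and so supplies acetate for lipid synthesis, was at 6.75, 10.4, 10.8 and 5.33 CPM in WT and at 24.8, 20.6, 7.05 and 4.95 CPM in Mvp KO, with the highest log2 fold change of the group, 0.79 (SE 0.490). In both genes Mvp KO replicates 3 and 4 were below WT replicates 2 and 3. *Enpp2*, which encodes autotaxin, the enzyme that makes lysophosphatidic acid, had the lowest of the group, with 188, 248, 226 and 128 CPM in WT and 266, 266, 203 and 179 CPM in Mvp KO, and a log2 fold change of 0.21 (SE 0.207) that came to 0.053 without WT replicate 4. *Fa2h*, *Car2*, *Qdpr*, *Trf*, *Cryab* and *Apod* lay between. Of the exonic bases of *Trf*, 63.5% are shared on the same strand with the locus *Gm20425*, so that its count depends on how shared reads were treated, and *Qdpr* and *Cryab* share 18.6% and 17.0% with a gene on the other strand.

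Among the 8 genes of signalling and the cytoskeleton the median log2 fold change was 0.59, again all above 0. *Anln*, an actin-binding scaffold that is concentrated in myelin, had the highest, 0.78 (SE 0.429), with 14.7, 15.2, 23.9 and 11.3 CPM in WT and 52.2, 31.2, 14.0 and 13.9 CPM in Mvp KO. *Lpar1*, a receptor for the lysophosphatidic acid that *Enpp2* makes, had the lowest, 0.25 (SE 0.312), with 16.2, 16.9, 21.6 and 30.0 CPM in WT and 40.7, 26.6, 16.5 and 16.6 CPM in Mvp KO. Like *Tspan2*, *Lpar1* was at its WT maximum in WT replicate 4, and without Mvp KO replicate 1 its log2 fold change was -0.09. The neuregulin receptor *Erbb3*, the receptor *Gpr37*, the protease *Adamts4*, and *Ppp1r14a*, *Plekhh1* and *Evi2a* lay between 0.47 and 0.65. *Evi2a* shares 19.2% of its exonic bases on the same strand with *Evi2*, and *Plekhh1* shares 14.8% with a gene on the other strand.

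Over the 30 myelinating members, the median log2 fold change was 0.63 and the count at an unadjusted p under 0.05 was 0. It rested most on Mvp KO replicate 1: the median was 0.23 without Mvp KO replicate 1, 0.48 without Mvp KO replicate 2, 0.85 without Mvp KO replicate 4 and 0.48 when WT replicate 4 was left out. Without Mvp KO replicate 1 the log2 fold change was 0.29 for *Mbp*, 0.18 for *Mog*, 0.23 for *Ugt8a* and 0.28 for *Anln*. Mvp KO replicates 1 and 2 were the 2 highest of the 8 samples in 29 of the 30 genes (96.7%), which was the case for 7.36% of all genes tested, and *Lpar1* was the exception. Mvp KO replicate 1 was the highest sample in 29 of 30, against 15.5% of all genes, and *Gjc3* was the exception. Mvp KO replicates 3 and 4 were at or below the highest WT sample in 30 of 30, as they were in 12886 of all 16914 genes tested. Both lay within the WT range in 20 of 30, against 8792 of all genes. WT replicate 4 was the lowest WT sample in 25 of 30 (83.3%), against 42% of all genes. The 95% interval lay within 1.5-fold in either direction for 0 of 30 and within 2-fold for 5 of 30. Of the 13182 genes tested at or above the lowest member's level, 10629 lay within 1.5-fold and 12543 within 2-fold.

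**Figure D2:**
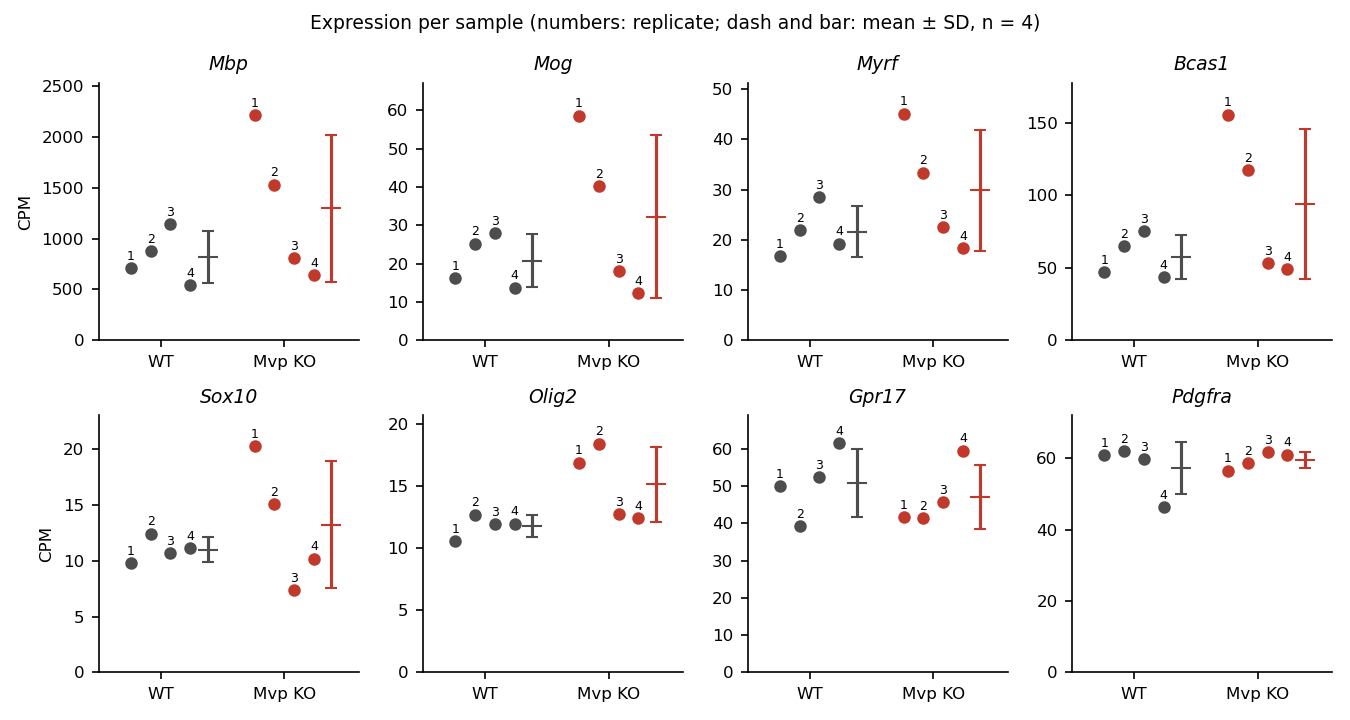
CPM (y axis, from 0) of 8 members in each sample, with replicate numbers beside the points and the mean ± SD (n = 4) beside each genotype. Mvp KO replicates 1 and 2 stand above all WT samples in *Mbp*, *Mog*, *Myrf*, *Bcas1*, *Sox10* and *Olig2*, while *Gpr17* and *Pdgfra* show no such split.

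The 6 transcription factors had a median log2 fold change of 0.31, with a range from 0.17 to 0.80, all above 0. *Olig1* and *Olig2* are neighbouring basic helix-loop-helix factors on chromosome 16 (GRCm38, 91269772 to 91271933 and 91225457 to 91228677) and are made at all stages of the lineage. *Olig2*, which specifies the lineage, was at 10.6, 12.7, 12 and 12 CPM in WT and at 16.9, 18.4, 12.8 and 12.4 CPM in Mvp KO. WT replicate 2 lay above Mvp KO replicate 4, and without either of them the genotypes did not overlap. The means were 11.8 ± 0.892 CPM and 15.1 ± 2.99 CPM (SD, n = 4 each), a log2 fold change of 0.36 (SE 0.143, unadjusted p = 0.0321, adjusted p = 0.969, edgeR). The unadjusted p no longer passed 0.05 without WT replicate 1, WT replicate 3, Mvp KO replicate 1 or Mvp KO replicate 2. *Olig1* was at 44.1, 55.4, 50.0 and 45.6 CPM in WT and at 58.4, 67.0, 47.7 and 47.0 CPM in Mvp KO, with a log2 fold change of 0.17 (SE 0.126).

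*Sox10*, which is present from the precursor to the mature cell, was at 9.79, 12.4, 10.7 and 11.1 CPM in WT and at 20.3, 15.1, 7.36 and 10.2 CPM in Mvp KO. Its log2 fold change was 0.27 (SE 0.272) and became -0.02 without Mvp KO replicate 1. *Myrf*, the regulator of the myelin programme, was at 16.7, 21.9, 28.6 and 19.2 CPM in WT and at 45.2, 33.3, 22.5 and 18.4 CPM in Mvp KO, with a log2 fold change of 0.47 (SE 0.276). *Nkx6-2*, a homeodomain factor of mature oligodendrocytes, had the highest log2 fold change of the 6, 0.80 (SE 0.483), from 2.57, 4.40, 2.79 and 1.87 CPM in WT and 9.16, 6.63, 2.53 and 1.97 CPM in Mvp KO. *Nkx2-2*, a homeodomain factor of committing cells, was low, at 1.98, 2.21, 1.38 and 1.91 CPM in WT and 2.89, 2.77, 1.42 and 1.75 CPM in Mvp KO, with a log2 fold change of 0.24 (SE 0.266). Without Mvp KO replicate 1 the values of *Myrf*, *Nkx6-2* and *Nkx2-2* came to 0.20, 0.35 and 0.09. In all 6 factors Mvp KO replicates 1 and 2 were the 2 highest samples. *Nkx6-2* and *Nkx2-2* share 12.9% and 9.67% of their exonic bases with a gene on the other strand.

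The 3 committed-stage genes did not behave alike. *Bcas1*, which marks premyelinating cells and stays on during early myelination, followed the sheath genes, at 46.8, 64.7, 75.2 and 43.4 CPM in WT and 156, 117, 53.1 and 49.0 CPM in Mvp KO, with a log2 fold change of 0.71 (SE 0.370). *Enpp6* was at 4.39, 4.10, 6.17 and 2.98 CPM in WT and at 12.2, 7.57, 3.05 and 3.09 CPM in Mvp KO, with a log2 fold change of 0.56 (SE 0.446) that came to 0.058 without Mvp KO replicate 1. *Gpr17*, an orphan receptor that is switched off before myelination, was at 50.0, 39.3, 52.4 and 61.6 CPM in WT and at 41.6, 41.5, 45.7 and 59.6 CPM in Mvp KO. Its highest sample was WT replicate 4, in which *Mbp*, *Bcas1* and *Enpp6* were at their lowest, and its log2 fold change was -0.11 (SE 0.155), or -0.0019 without WT replicate 4. *Bcas1* shares 12.6% of its exonic bases with genes on the other strand.

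The precursor genes were close to level across the samples. *Pdgfra* (chromosome 5, 75152292 to 75198215, plus strand, GRCm38) was at 60.9, 62.1, 59.7 and 46.3 CPM in WT and at 56.6, 58.7, 61.8 and 61.1 CPM in Mvp KO. Only WT replicate 4 lay apart, and the other 7 samples spanned 56.6 to 62.1 CPM. The log2 fold change was 0.06 (SE 0.0958, 95% interval 0.896-fold to 1.21-fold on the linear scale), and -0.03 without WT replicate 4. *Cspg4*, the proteoglycan NG2, was at 14.9, 16.9, 15 and 18.5 CPM in WT and at 16.0, 17.1, 14.3 and 19.4 CPM in Mvp KO, with a log2 fold change of 0.03 (SE 0.118, 95% interval 0.851-fold to 1.23-fold). The sign of this small value turned without WT replicate 1 or 3 or Mvp KO replicate 4. Both intervals lay within 1.5-fold in either direction, as did that of *Olig1* and that of *Gpr17* among the other members. The same was the case for 10629 of the 13182 genes at or above the lowest member's level. Pericytes also make *Cspg4*, and the summed level of 6 pericyte genes was 195 to 253 CPM in WT and 174 to 236 CPM in Mvp KO. Meningeal fibroblasts also make *Pdgfra*, and their genes too were at their lowest in WT replicate 4, whose part in the *Pdgfra* value was not tested.

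Because 2 precursor genes are few, 12 further precursor genes were read, among them *Lhfpl3*, *Cacng4*, *Vcan*, *Neu4*, *Ptprz1* and *Sox6*. Of these, 6 were higher and 6 lower on average in Mvp KO, 0 had an unadjusted p under 0.05, and the median log2 fold change was -0.0048, or 0.047 without WT replicate 4. The 95% interval lay within 1.5-fold for 11 of 12, against 10629 of the 13182 genes at or above the lowest member's level. *Neu4*, a sialidase, had the lowest value, -0.17 (SE 0.158), at 9.23, 7.90, 10.1 and 13.4 CPM in WT and 8.91, 8.43, 9.10 and 9.58 CPM in Mvp KO. It turned on WT replicate 4, without which it was -0.0064. Mvp KO replicates 1 and 2 were the 2 highest samples in 1 of 12 (8.33%), against 7.36% of all genes.

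The contrast between stages was also seen in the spread between samples, without regard to genotype. The highest sample exceeded the lowest by a median of 4.38 times in the myelin membrane genes, 3.49 times in those of metabolism, 3.41 times in those of signalling and 2.39 times in the transcription factors. The ratio was 1.34 for *Pdgfra* and 1.36 for *Cspg4*, with a median of 1.48 in the 12 further precursor genes, and the median over the 13182 genes at or above the lowest member's level was 1.41. In 16 other myelin genes, which are not members, the median was 2.45, with a range from 1.42 to 28.6. *Apod* had the widest range of the members, 7.50 times, from 29.8 CPM in WT replicate 4 to 223 CPM in Mvp KO replicate 1. Of the 13182 genes at or above the lowest member's level, 99.3% had a smaller range. For *Mbp* this share was 97.7%, for *Olig2* 76.5%, for *Gpr17* 65.9%, for *Cspg4* 43.4% and for *Pdgfra* 40.2%. Within genotypes, the SD of log2 CPM had a median of 0.662 in the myelinating members, 0.356 in the 16 other myelin genes, 0.157 in the precursor members and 0.163 in the 13182 genes.

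**Figure D3:**
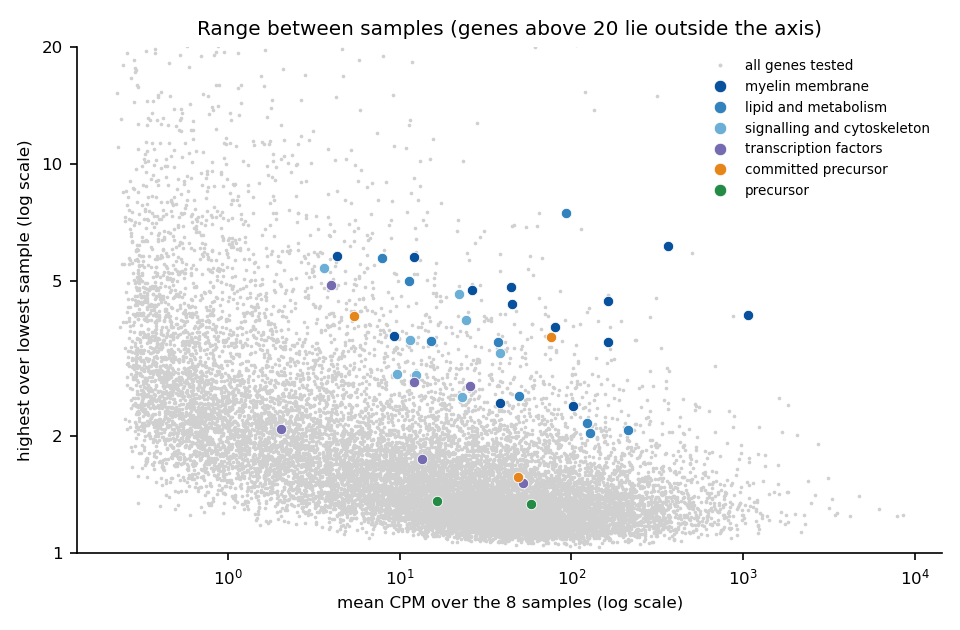
Highest over lowest sample (y axis, log scale) against mean CPM over the 8 samples (x axis, log scale) for each tested gene (grey) and the 41 members by group. The myelinating members lie above the bulk of genes of the same level, between 2.04 and 7.50, and *Pdgfra* and *Cspg4* lie within it at 1.34 and 1.36.

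Most sheath genes kept nearly fixed proportions to each other while their levels varied. The SD of log2 CPM over the 8 samples was 0.683 for *Mbp* and 0.685 for *Mal*, and that of the log2 ratio of *Mal* to *Mbp* was 0.0922. For *Cnp* the ratio to *Mbp* had an SD of 0.0924, for *Bcas1* 0.117, for *Mag* 0.140 and for *Mog* 0.181. The ratio to *Mbp* was steadier than the gene itself in 26 of the other 29 myelinating members, with a median SD of 0.200 against 0.684, and the exceptions were *Tspan2*, *Enpp2* and *Lpar1*. Among the transcription factors it was steadier for *Myrf* (0.253 against 0.486) and *Nkx6-2* (0.319 against 0.825) and not for the other 4. The ratio of *Pdgfra* to *Mbp* had an SD of 0.668 and ranged 3.73-fold over the samples, and that of *Gpr17* had an SD of 0.870 and ranged 6.08-fold. Where a gene varies far less than *Mbp*, its ratio cannot be steadier than the gene, whichever way the gene runs. That holds for *Olig1* (SD 0.207), *Olig2* (0.270), *Gpr17* (0.245) and *Pdgfra* (0.140), so that comparison cannot tell whether they follow *Mbp*. Set against the SD of *Mbp* itself, 0.683, the ratio varied less for *Olig1* (0.531) and *Olig2* (0.492), which thus ran in part with *Mbp*. For *Pdgfra* the SD of the ratio was close to that of *Mbp*. For *Gpr17* it was above it, and this gene tended to run against *Mbp*. All of these ratios share *Mbp* and are a description of 8 samples.

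Averaged over genes, the myelinating members minus the precursor members gave a mean log2 CPM difference of -0.24, 0.07, 0.34 and -0.44 in WT replicates 1 to 4 and of 1.29, 0.78, -0.14 and -0.63 in Mvp KO replicates 1 to 4. Mvp KO samples held both the highest and the lowest value. The means were -0.07 ± 0.343 in WT and 0.33 ± 0.868 in Mvp KO (SD, n = 4 each), a difference of 0.39 that was smaller than the SD in Mvp KO. It was 0.27 when WT replicate 4 was left out, 0.074 without Mvp KO replicate 1, 0.24 without Mvp KO replicate 2 and 0.71 without Mvp KO replicate 4. Against the 12 further precursor genes the difference between genotypes was 0.40. A mean of log values weighs samples otherwise than the fitted fold change, so these differences are smaller than the median of the fits.

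**Figure D4:**
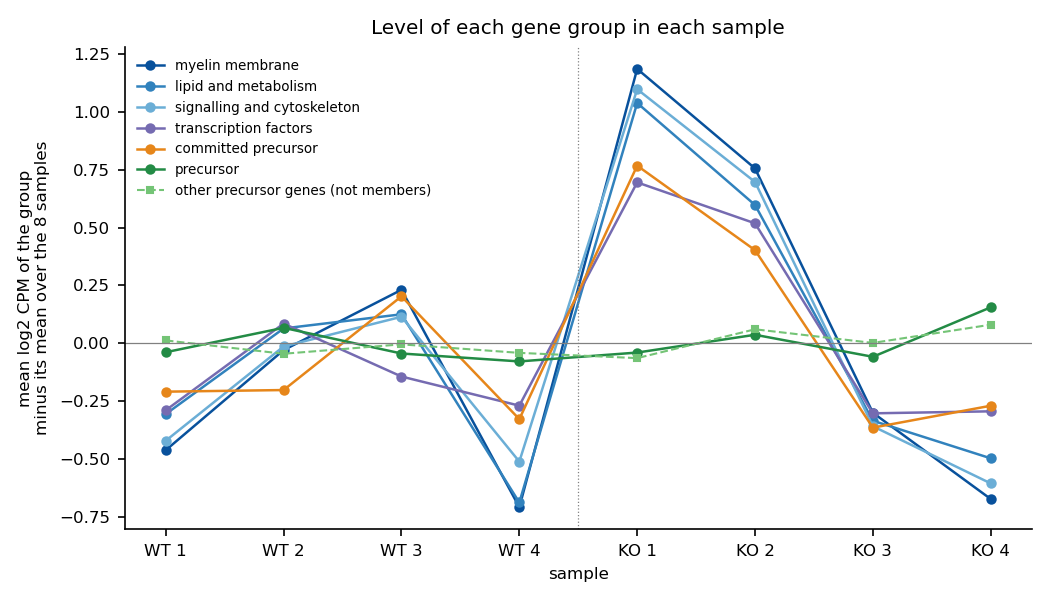
Mean log2 CPM of each group minus its own mean over the 8 samples (y axis), by sample (x axis, WT and Mvp KO replicates 1 to 4). The 3 myelinating groups run together from -0.71 in WT replicate 4 to 1.19 in Mvp KO replicate 1. The means of the transcription factors and of the committed-stage genes follow with smaller swings, though *Gpr17* of the latter group does not. The precursor genes stay between -0.08 and 0.16.

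Other genes of the lineage were read from lists that go beyond the members. Of 16 other myelin genes, 16 were higher on average in Mvp KO, against 50% of all genes, with a median log2 fold change of 0.38. Many of them moved together between samples, so these directions are not independent of each other. In edgeR's test 0 were called, and 2 had an unadjusted p under 0.05, against 1.56% of all genes. These were *Gal3st1*, the sulfotransferase that makes sulfatide (0.51, SE 0.217, adjusted p = 0.969, edgeR), and *Carns1*, carnosine synthase (0.51, SE 0.220, adjusted p = 0.969, edgeR). *Gal3st1* was at 4.16, 5.23, 4.67 and 2.86 CPM in WT and 6.91, 7.27, 4.71 and 5.16 CPM in Mvp KO, with WT replicate 2 above Mvp KO replicates 3 and 4. *Carns1* was at 4.66, 5.20, 6.6 and 4.67 CPM in WT and 11, 7.07, 6.15 and 5.79 CPM in Mvp KO, and its log2 fold change was 0.27 without Mvp KO replicate 1. *Klk6*, a protease of mature oligodendrocytes, had the highest value, 1.5 (SE 0.916), which fell to 0.19 without Mvp KO replicate 1, the sample that had 5.06 CPM while the remaining ones had 0.18 to 1.44 CPM. *Pex5l* had the lowest, 0.02 (SE 0.154). Mvp KO replicates 1 and 2 were the 2 highest samples in 13 of 16 (81.2%), against 7.36% of all genes.

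Of 10 other committed-stage genes, 7 were higher and 3 lower, with a median log2 fold change of 0.05 and 0 at an unadjusted p under 0.05. *Bmp4*, a ligand made by committing precursors, was highest (0.37, SE 0.394) and turned to -0.06 without Mvp KO replicate 1. *Rras2*, a small GTPase, was lowest (-0.51, SE 0.332), at 25.0, 20.5, 21.3 and 61.4 CPM in WT and 24.5, 23.9, 20.5 and 21.1 CPM in Mvp KO, and was 0.02 without WT replicate 4. Of 13 signals that act on the lineage, 6 were higher and 7 lower, with a median of -0.02 and 1 at an unadjusted p under 0.05, against 1.56% of all genes. That gene was *Hes5*, a Notch target of precursors and astrocytes, at 10, 9.95, 6.17 and 9.18 CPM in WT and 4.76, 7.30, 5.73 and 6.84 CPM in Mvp KO, with a log2 fold change of -0.52 (SE 0.192, unadjusted p = 0.0228, adjusted p = 0.969, edgeR). WT replicate 3 lay below Mvp KO replicates 2 and 4. *Jag1*, a Notch ligand, had the highest value, 0.28 (SE 0.246).

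Markers of other cells were set beside these values. Mvp KO replicate 1, the highest sample in 29 of 30 myelinating members, had the lowest summed level of 10 astrocyte genes (4960 CPM, with 5407 to 5862 CPM in Mvp KO replicates 2 to 4 and 5760 to 6133 CPM in WT) and of 10 neuronal genes (10764 CPM, with the rest between 11287 and 14288 CPM), and the highest of the leptomeningeal fibroblast genes. Gene by gene, Mvp KO replicate 1 was the lowest sample in 5 of the 10 astrocyte genes and the highest in 1. It was the lowest in 2 of the 10 neuronal genes and the highest in 0. Mvp KO replicate 2 was not at an extreme of the summed astrocyte, neuronal or fibroblast genes, with 5862, 11878 and 41 CPM. The sums of 10 microglial genes were 422 to 472 CPM in WT and 414 to 433 CPM in Mvp KO, those of 10 endothelial genes 275 to 374 CPM and 257 to 348 CPM, and those of 8 striatal neuron genes 174 to 247 CPM and 164 to 226 CPM. Those of the endothelial genes were 323, 348, 257 and 265 CPM in Mvp KO replicates 1 to 4. Those of 6 pericyte genes were 236, 231, 174 and 183 CPM there, and those of the neuronal activity genes 1418, 1537, 900 and 1191 CPM. Replicates 1 and 2 were thus above 3 and 4, as in the sheath genes, but not above every WT sample. The striatal (164, 187, 226 and 224 CPM) and neuronal sums ran the other way. The microglial, astrocyte and fibroblast sums did not split into these pairs. Of 6 choroid plexus genes, *Folr1*, *Clic6* and *Otx2* were below 1 CPM in every sample, *Kl* was at 2.86 to 6.10 CPM, and *Ttr* and *Sostdc1* reached 4.35 and 1.28 CPM. Their summed level was 5.05 to 8.40 CPM in WT and 5.00 to 9.30 CPM in Mvp KO, and no marker was at 0 in all samples. None of the marker genes was called by edgeR's test, and 1 astrocyte gene had an unadjusted p under 0.05. The part of these cells in the differences between samples was not tested.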

How the data were processed

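RNA of the cingulate gyrus of 4 WT and 4 Mvp KO male mice was measured by stranded mRNA sequencing from 200 ng of total RNA. Per the submitters' processing notes and the methods of the study, the authors trimmed reads with cutadapt 1.10, removed ribosomal and spike-in reads with Bowtie2 2.2.8, mapped to mm10 with STAR 2.5.3a and deposited raw counts per gene from HTSeq 0.6.1p1 with Ensembl release 91. Its overlap mode and strand setting were not given in the sources used here. The table had 0 entries that name no gene.

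Genes were compared with edgeR 4.0.16 (R 4.3.3): filterByExpr (minimum count 10, minimum total 15), TMM scaling, and a quasi-likelihood fit with robust dispersions and genotype as its only term, on 16914 genes, with Benjamini-Hochberg adjustment and a threshold of 0.05. The common biological coefficient of variation was 18.3%. Log2 CPM used a prior count of 2. Symbols, coordinates and exonic lengths came from GENCODE vM21 on GRCm38, another release than that of the authors, which holds 53274 of 53379 identifiers. Depth was 28456504 to 42854368 counts per sample.

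The members and lists were chosen with earlier results of these data known. Genes named with full statistics were the defining members, each at an unadjusted p under 0.05, the highest and lowest log2 fold change of each group and list, and *Mvp*. Some items under this rule are not reported here. Ranges and ratios to *Mbp* were added after values had been seen, as were the genes named as exceptions. Alternatives were DESeq2's size factors, the Wald test of DESeq2 1.42.0, no filter, the replicate number as a block, leaving out each sample, and 0.1 as the threshold. The edgeR and DESeq2 fits were tested on simulated counts. Summaries and plots were made in Python 3.11.15 (SciPy 1.17.1, NumPy 2.4.6, pandas 2.3.3, matplotlib 3.10.9).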

Additional observations from a re-analysis of the deposited data

Results flagged for a closer look

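Among 110 groups of 4 values examined, 5 held a sample far from the other 3, and chance alone gives about 5.5. The total count of WT replicate 2 was 42854368, against 33408202 to 34760784 in the other WT samples. *Pdgfra* was at 46.3 CPM in WT replicate 4, where WT replicates 1 to 3 had 59.7 to 62.1 CPM. *Rras2* was at 61.4 CPM in WT replicate 4, against 20.5 to 25.0 CPM. The summed level of the leptomeningeal fibroblast genes was 19.3 CPM in WT replicate 4, against 54.4 to 58.0 CPM. *Mvp* was at 2.13 CPM in Mvp KO replicate 3, where Mvp KO replicates 1, 2 and 4 had 1.44 to 1.51 CPM. The sheath genes were not among the 5, since their Mvp KO values lay in pairs (replicates 1 and 2 above, 3 and 4 below) rather than with a single sample apart.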

How the results depend on the processing

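Of 501 values recomputed for 42 results, 474 had the direction and call of the reported value, or for values without a test stayed within their spread. The count of members called was 0 under each of the 13 alternatives run, DESeq2's Wald test included, and the members higher in Mvp KO numbered 38 to 40. The count at an unadjusted p under 0.05 was 3 with DESeq2's Wald test and ran from 0 (without WT replicate 1, Mvp KO replicate 1 or Mvp KO replicate 2) through 6 (without Mvp KO replicate 3) to 24 (without Mvp KO replicate 4), 20 of them myelinating members, while 1.74% of all genes passed in that last fit. The count of members without overlap was 0 to 1 (*Olig2*, without WT replicate 2 or Mvp KO replicate 4, where 3.31% and 3.4% of all genes did not overlap). The median of the myelinating members ran from 0.23 to 0.85 and that of the other precursor genes from -0.036 to 0.047 when samples were left out. Direction turned only when a sample was left out, for 7 named genes: *Bmp4* (-0.064 to 0.61), *Cspg4* (-0.052 to 0.098), *Lpar1* (-0.089 to 0.47), *Pdgfra* (-0.030 to 0.097), *Pex5l* (-0.11 to 0.14), *Rras2* (-0.68 to 0.020) and *Sox10* (-0.016 to 0.46). The log2 fold change of *Mvp* ran from -2.22 to -1.99 with samples left out, and its adjusted p missed 0.05 without WT replicates 1, 2 or 3 or Mvp KO replicates 1, 2 or 4. The cause of these changes was not tested, apart from the fewer samples of those fits. Samples with the same replicate number shared little beyond the number: the correlations of their deviations from the genotype means were 0.0548, 0.287, -0.0067 and 0.0507, and 1 of the 4 correlated best with its own number. With the replicate block, the log2 fold change of *Mvp* was -2.07 (adjusted p = 0.0850, edgeR), the median of the myelinating members was 0.46, and 0 members were called and 1 had an unadjusted p under 0.05. The effect of depth was not tested.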
